A study of Mus musculus with 4 samples.

Results

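The genes described here encode the lysosome of MC38 cells, a mouse colon cancer line: its soluble enzymes, several of its membrane proteins, its proton pump and the TFEB family of transcription factors that control them. They were taken by gene symbol from a fixed list of 43, all of which were among the 26322 genes of the expression table. MC38 cells in which the transcription factor subunit CBFβ had been targeted with Cas9 and a Cbfb guide (sgCbfb, labelled CbfbKO) were compared with cells given Cas9 and a non-targeting guide (sgNT, labelled WT), with 2 libraries in each group. In the study the guides were delivered as Cas9 ribonucleoprotein by electroporation, so both groups carried the same manipulation apart from the guide sequence. No other treatment is given for these libraries, and the sources used here do not say whether the edited cells were a clone or a mixed population, or whether the 2 libraries of a group came from separate cultures. The p-values therefore measure the spread between these libraries, which may be technical. The question was whether RNA for the lysosome differed between sgCbfb and sgNT cells, in a study of metal ion balance and tumour cell death.

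The lysosome is the acidic compartment in which cells break down proteins, sugars and lipids taken up from outside or delivered by autophagy. Its acidity comes from the vacuolar ATPase, in which the cytosolic V1 sector hydrolyses ATP and drives protons through the membrane-embedded V0 sector. TFEB, TFE3 and MITF bind short E-box sequences in the promoters of many lysosomal genes, a set known as the CLEAR network, and the kinase mTORC1 holds them in the cytoplasm when nutrients are plentiful.

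Levels are given as log2 CPM, the log2 of a gene's reads scaled to the library total (CPM), and as whole reads recovered from those values. Reads were made from the 3′ end of each mRNA, so levels were not divided by gene length. Differences are taken between groups for the same gene, and the gene with the most reads in a role is named only as the rule for which genes are described in full. The libraries held 3189035 to 3907936 reads, of which the ribosomal RNA gene Rn45s took 11.3 to 13.9%, and 1 read was worth 0.256 to 0.314 CPM. Cbfb had 295 and 285 reads in the sgNT libraries against 125 and 125 in the sgCbfb libraries. Its level was 41.5% of that in sgNT (log2 fold change -1.27, SE 0.12; limma adjusted p = 1.76e-07). The fold change was -1.125 (adjusted p = 0.267) without sgCbfb replicate 1 and -1.41 (adjusted p = 0.193) without sgCbfb replicate 2. A fit with 1 library left out takes the spread of the lone library from the other group, and without either sgCbfb library no gene of the 12207 tested passed, so a call lost there says nothing about a single gene and the fold changes are given instead. Because the reads lie at the 3′ end, they show the amount of Cbfb RNA and not the edit itself. The epithelial markers were close to absent in these cells, with 5 to 7 reads in sum over 8 genes in each library and Krt18 and Vil1 at 0. Macrophages are rich in lysosomes, and of 11 macrophage markers 7 had no reads in any library, among them Csf1r, Adgre1, Lyz2 and the C1q genes. Their sum was 33 and 23 reads in sgNT against 16 and 21 in sgCbfb, mostly from Cd14.

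RNA for the lysosomal members in sum was at a similar level in both groups. The 43 genes together made up 6049 and 5949 CPM in the sgNT libraries and 6346 and 6134 CPM in the sgCbfb libraries. Both sgCbfb sums lay above both sgNT sums, at 0.635% and 0.613% of all reads against 0.605% and 0.595%. All reads here include Rn45s, at 13.9% and 13.1% in sgNT and 11.3% and 13.0% in sgCbfb. Shares without Rn45s were not taken, and the size of so small a gap depends on that choice of total. In bulk RNA, a change in some of the cells and a smaller change in all of them cannot be told apart. Ctsf, which encodes cathepsin F, had no read in any library, which allows up to 3 reads or 0.768 to 0.941 CPM by counting error alone, and the other 42 genes passed the filter on low values (2 or more libraries at or above a log2 CPM of 0). Of these, 24 had a positive and 18 a negative fold change, with a median log2 fold change of 0.026 and quartiles of -0.073 and 0.14. The median over all 12207 genes tested was 0.039, with quartiles of -0.12 and 0.21.

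A single member passed the test. Atp6v0b, a subunit of the proton pump, fell, and no member rose by limma at an adjusted p of 0.05 (7 had an unadjusted p under 0.05, and voom on the recovered reads called 3 with library totals and 2 with median scaling). Among all genes tested, 1.57% rose and 1.25% fell at that threshold, 192 and 153 genes (258 and 196 by voom with library totals, 191 and 240 by voom with median scaling). At an unadjusted p under 0.05, 7 of the 42 members (16.7%) were higher and 2 (4.76%) were lower, against 9.67% and 5.23% of all genes. The groups did not overlap for 25 members, 16 higher (38.1%) and 9 lower (21.4%) in sgCbfb, against 27.4% and 16.8% of all genes. The log2 fold change was under 0.2 in size for 30 members and over 0.5 for Tfeb and Gm2a.

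**Figure D1:**
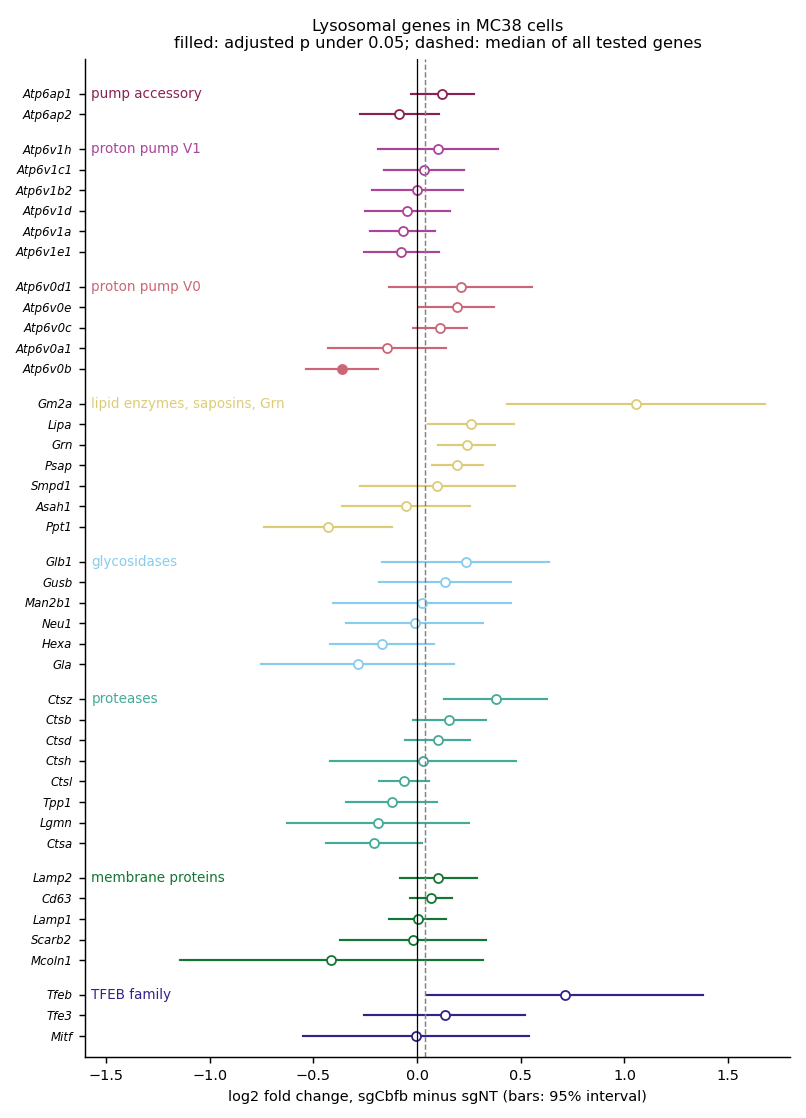
Log2 fold change (x axis, sgCbfb minus sgNT) of each of the 42 tested lysosomal genes, grouped by role, with bars for the 95% interval and the median of all tested genes as a dashed line. Most points lie within 0.2 of 0, Atp6v0b is the filled point, and Gm2a and Tfeb lie farthest to the right with wide intervals.

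Among the transcription factors, Tfeb encodes TFEB, the family's main activator of lysosomal genes. Tfeb was at 2.32 and 2.34 log2 CPM in sgNT and at 3.25 and 2.84 in sgCbfb. Its level was higher in both sgCbfb libraries, but these values rest on 15 and 15 reads against 35 and 21. The log2 fold change was 0.71 (95% interval 0.050 to 1.38; limma adjusted p = 0.288). Tfe3, a related factor with 61 to 80 reads, was at 4.30 and 4.24 in sgNT and 4.40 and 4.41 in sgCbfb, a difference of 0.13 (95% interval -0.25 to 0.52; adjusted p = 0.813). Mitf, known best as the regulator of pigment cells, was at 3.69 and 3.21 in sgNT and 3.53 and 3.36 in sgCbfb. Its sgCbfb values lay between its sgNT values, and the log2 fold change was -0.0046 (95% interval -0.55 to 0.54; adjusted p = 0.995). None of the 3 factors passed the test, and the intervals leave room for changes of over 0.5 on the log2 scale in each.

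The membrane proteins differed little. Cd63, a tetraspanin of late endosomes and exosomes and the gene of the role with the most reads, was at 10.59 and 10.57 log2 CPM in sgNT and 10.63 and 10.66 in sgCbfb. The groups were apart by little, and the difference was 0.068 (95% interval -0.035 to 0.17; limma adjusted p = 0.584). Lamp1 and Lamp2, the glycoproteins that line the inner face of the membrane, differed by 0.0032 (95% interval -0.13 to 0.14) and 0.10 (95% interval -0.084 to 0.29). Scarb2, the receptor that carries glucocerebrosidase to the lysosome, differed by -0.020. Mcoln1, the calcium release channel TRPML1, had 22 and 19 reads in sgNT and 24 and 10 in sgCbfb. Its groups overlapped, and the difference of -0.41 had a 95% interval of -1.14 to 0.32. With Cd63 apart, the groups overlapped for every gene of this class.

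The proteases went in both directions and mostly by small amounts. Their summed level was 1115 and 1097 CPM in sgNT and 1126 and 1098 CPM in sgCbfb. Ctsl, an endopeptidase and the protease with the most reads, was at 9.09 and 9.11 log2 CPM in sgNT and 9.04 and 9.04 in sgCbfb. The sgCbfb libraries were both lower, with a log2 fold change of -0.062 (95% interval -0.18 to 0.058; limma adjusted p = 0.690). Ctsz, a carboxypeptidase, was at 5.72 and 5.63 in sgNT and 6.19 and 5.92 in sgCbfb, from 177 and 163 reads against 283 and 191. Its groups did not overlap, and the log2 fold change was 0.38 (SE 0.12, 95% interval 0.13 to 0.63; adjusted p = 0.0960). Exons of Ctsz overlap those of Nelfcd on the opposite strand, with 212 and 221 reads in sgNT and 245 and 200 in sgCbfb, and the sources used here do not give the use of strand in counting.

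The other 6 tested proteases had log2 fold changes from -0.21 to 0.16. Ctsb, a cysteine protease often secreted by tumour cells, differed by 0.16 (542 and 459 reads in sgNT, 666 and 511 in sgCbfb). Its exons overlap those of Fdft1 on the opposite strand, with 91 and 116 reads in sgNT and 155 and 115 in sgCbfb. The part of Fdft1 in the Ctsb value was not tested. Ctsd, the main aspartic protease of the lysosome, differed by 0.099, and Ctsh, an aminopeptidase, by 0.029. Ctsd shares exon positions with Gm49369, and Ctsl with Gm49230, on the same strand, and neither is among the genes of the expression table. Lower values were found for Ctsa, which also shields β-galactosidase and neuraminidase from breakdown (-0.21), for legumain, Lgmn, which processes cathepsins (-0.19), and for Tpp1, a tripeptidyl peptidase (-0.12). None of these had an unadjusted p under 0.05.

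Of the enzymes that remove sugars, none had an unadjusted p under 0.05. Hexa, the α subunit of β-hexosaminidase and the gene of the role with the most reads, was at 5.85 and 5.73 log2 CPM in sgNT and 5.69 and 5.55 in sgCbfb. The level was lower in each sgCbfb library than in either sgNT library, with a log2 fold change of -0.17 (95% interval -0.42 to 0.080; limma adjusted p = 0.568). Gla, α-galactosidase, had 54 and 48 reads in sgNT and 51 and 37 in sgCbfb, and differed by -0.29. Glb1, β-galactosidase, had 54 and 61 reads against 78 and 65, and differed by 0.23. Its exons overlap those of Tmppe on the same strand, which had 64 and 84 reads in sgNT and 57 and 44 in sgCbfb, and the part of such shared positions in the Glb1 value was not tested. Gusb (β-glucuronidase), Man2b1 (α-mannosidase) and Neu1 (neuraminidase) differed by 0.14, 0.022 and -0.012, with groups that overlapped. The summed level of the 6 genes was 168.1 and 160.1 CPM in sgNT and 164.8 and 158.4 CPM in sgCbfb.

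The genes for lipid breakdown and its helper proteins, grouped with progranulin, numbered 7, of which 4 were higher and 1 was lower at an unadjusted p under 0.05 (9.67% and 5.23% among all genes). The difference between this role and the others was not tested. Their sum was 990.5 and 979.0 CPM in sgNT and 1166 and 1088 CPM in sgCbfb, so that both sgCbfb libraries were higher. Grn encodes progranulin, which is cut into granulins in the lysosome. It was at 8.35 and 8.38 log2 CPM in sgNT (1110 and 1107 reads) and at 8.68 and 8.53 in sgCbfb (1598 and 1180 reads). The groups did not overlap, and sgCbfb replicate 1 was the higher of its group. The log2 fold change was 0.24 (SE 0.066; 95% interval 0.10 to 0.38) with a limma adjusted p of 0.0509, just short of the threshold. By voom with library totals it passed, at an adjusted p of 0.0165. Exons of Grn overlap those of Fam171a2 on the opposite strand, which had 87 and 80 reads in sgNT and 146 and 98 in sgCbfb, and their part in the Grn value was not tested.

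Psap encodes the precursor of the saposins, small proteins that lift lipids out of membranes for the enzymes, and binds progranulin on its way to the lysosome. Its level was 8.93 and 8.88 log2 CPM in sgNT and 9.15 and 9.05 in sgCbfb. The groups again did not overlap, with a log2 fold change of 0.20 (SE 0.060, 95% interval 0.071 to 0.32; limma adjusted p = 0.0866). It passed by voom with library totals (adjusted p = 0.0319) and with a minimum of 5 CPM (adjusted p = 0.0407), but not by voom with median scaling (adjusted p = 0.0888) or in the other 11 alternative fits. Within each library the ratio of Grn to Psap reads was 0.672 and 0.704 in sgNT and 0.722 and 0.697 in sgCbfb, so it overlapped between the groups.

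Gm2a encodes the GM2 activator, which presents the ganglioside GM2 to β-hexosaminidase. It had the largest fold change of the 42 members and few reads, 15 and 23 in sgNT and 57 and 32 in sgCbfb, or 2.32 and 2.90 against 3.92 and 3.41 log2 CPM. The sgCbfb libraries lay above the sgNT libraries, at 208% of the sgNT level (log2 fold change 1.05, SE 0.30, 95% interval 0.43 to 1.68; limma adjusted p = 0.0581). This gene, too, passed by voom with library totals (adjusted p = 0.0316). Reads of Hexa, whose product works with it, were 12.9 and 7.61 times those of Gm2a in sgNT and 3.49 and 4.63 times in sgCbfb. This pair of genes was chosen after the values were seen.

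Lipa, lysosomal acid lipase, which frees cholesterol from its esters, was at 6.25 and 6.28 log2 CPM in sgNT and at 6.44 and 6.61 in sgCbfb. Its log2 fold change was 0.26 (95% interval 0.053 to 0.47; limma adjusted p = 0.195), with both sgCbfb libraries higher. Ppt1, which strips palmitate from proteins, went the other way, at 5.30 and 5.25 in sgNT (132 and 125 reads) and 4.96 and 4.73 in sgCbfb (119 and 83 reads). No sgCbfb value reached an sgNT value, and the level was 74.2% of that in sgNT, the lowest fold change of all members (-0.43, 95% interval -0.74 to -0.12; adjusted p = 0.140). Ppt1 shares exon positions with Cap1 on the opposite strand, with 54 and 60 reads in sgNT and 69 and 52 in sgCbfb. For Smpd1, acid sphingomyelinase, and Asah1, acid ceramidase, the groups overlapped and the differences were 0.099 and -0.052.

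**Figure D2:**
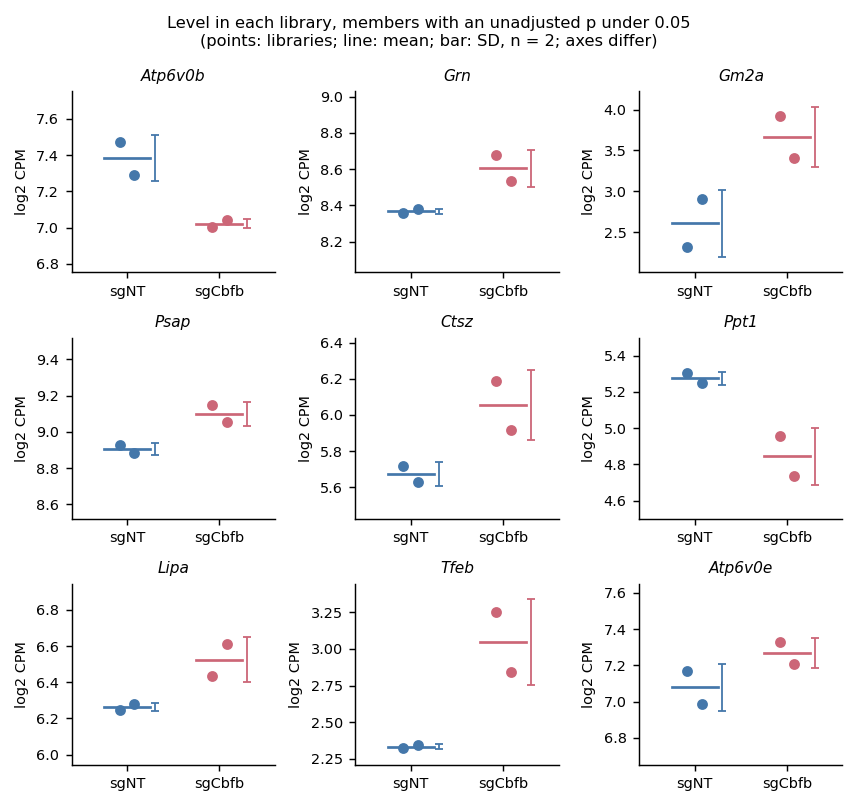
Level (log2 CPM, y axis; the axes differ between panels) in each of the 2 sgNT and 2 sgCbfb libraries for the 9 members with an unadjusted p under 0.05, with lines for group means and bars for the SD. In every panel the groups are apart, with Atp6v0b and Ppt1 lower in sgCbfb and the other 7 higher.

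In the proton pump, the sum over the 13 members overlapped between the groups and 1 of them fell. The 13 members summed to 1645 and 1640 CPM in sgNT and 1696 and 1605 CPM in sgCbfb, so that the sgNT values lay between the sgCbfb values. The log2 fold changes of 7 were positive and of 6 negative, with a median of 0.0016 and a range of -0.36 to 0.21, and 11 of the 13 were under 0.2 in size. The median was -0.080 without sgCbfb replicate 1 and 0.064 without sgCbfb replicate 2.

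The V0 sector carries the protons. Atp6v0b encodes the c″ subunit of its rotating ring (gene on the minus strand at chr4:117884326-117887333 in GRCm38). It was at 7.47 and 7.29 log2 CPM in sgNT (601 and 521 reads) and at 7.003 and 7.04 in sgCbfb (499 and 418 reads), or 7.38 ± 0.13 against 7.02 ± 0.027 (SD, n = 2 each). Both sgCbfb libraries were lower, and the sgNT libraries were farther apart than the sgCbfb libraries. The level fell to 77.9% of that in sgNT (log2 fold change -0.36, SE 0.084, 95% interval -0.53 to -0.19; limma adjusted p = 0.0145). With 1 library left out, the log2 fold change was -0.45 without sgNT replicate 2 (adjusted p = 0.0224) and -0.27 without sgNT replicate 1 (adjusted p = 0.240). It was -0.34 without sgCbfb replicate 1 and -0.38 without sgCbfb replicate 2, fits in which no gene passed. After quantile normalization it was -0.37 (adjusted p = 0.153). The antisense gene Gm12841 shares exon positions with Atp6v0b and is not among the genes of the expression table. Since the use of strand in counting is not given, its part in the Atp6v0b value could not be checked.

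Atp6v0c, the c subunit that makes up most of the same ring, was at 8.38 and 8.39 log2 CPM in sgNT and at 8.49 and 8.51 in sgCbfb. Both sgCbfb libraries were higher, with a log2 fold change of 0.11 (95% interval -0.018 to 0.24; limma adjusted p = 0.431). The ratio of Atp6v0b to Atp6v0c reads within a library was therefore 0.531 and 0.465 in sgNT and 0.355 and 0.361 in sgCbfb, a pair chosen after the values were seen. Atp6v0e, a small subunit of the sector, was at 7.17 and 6.99 in sgNT and 7.33 and 7.21 in sgCbfb. The groups did not overlap, with a log2 fold change of 0.19 (95% interval 0.012 to 0.37; adjusted p = 0.294). Atp6v0d1, which couples the ring to the central stalk, differed by 0.21 and Atp6v0a1, which forms the proton half-channels, by -0.15, with intervals that included 0.

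The 250 bases before the RefSeq start of Atp6v0b are shown because it was the only member that passed the test (chr4:117887330-117887579, minus strand, GRCm38.p6). Capitals mark the E-box word CACGTG, first at 36 and again at 18 bases before the start, and at 106 bases the word ACCACA, the reverse complement of TGTGGT, which RUNX factors, the partners of CBFβ, are known to bind.

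Atp6v0b: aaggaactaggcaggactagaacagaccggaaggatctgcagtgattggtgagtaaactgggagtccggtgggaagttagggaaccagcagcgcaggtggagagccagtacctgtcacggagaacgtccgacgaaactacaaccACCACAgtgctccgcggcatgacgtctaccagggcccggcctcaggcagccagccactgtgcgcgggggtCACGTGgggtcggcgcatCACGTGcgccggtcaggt

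The 6 members of the V1 sector, which hydrolyses ATP, differed little between the groups. Atp6v1a, the catalytic subunit and the V1 member with the most reads, was at 7.52 and 7.60 log2 CPM in sgNT and 7.53 and 7.46 in sgCbfb. Its groups overlapped, with a log2 fold change of -0.069 (95% interval -0.23 to 0.089; limma adjusted p = 0.752). Over all 6 members (Atp6v1a, Atp6v1b2, Atp6v1c1, Atp6v1d, Atp6v1e1 and Atp6v1h) the fold changes ran from -0.075 to 0.10, none had an unadjusted p under 0.05, and the groups overlapped for 5. Of the accessory proteins that assemble the pump, Atp6ap1 was at 7.64 and 7.67 in sgNT and 7.83 and 7.73 in sgCbfb, a difference of 0.12 (95% interval -0.030 to 0.27; adjusted p = 0.477). The groups did not overlap for Atp6ap1, whereas for Atp6ap2, the prorenin receptor, the groups overlapped with a difference of -0.085.

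**Figure D3:**
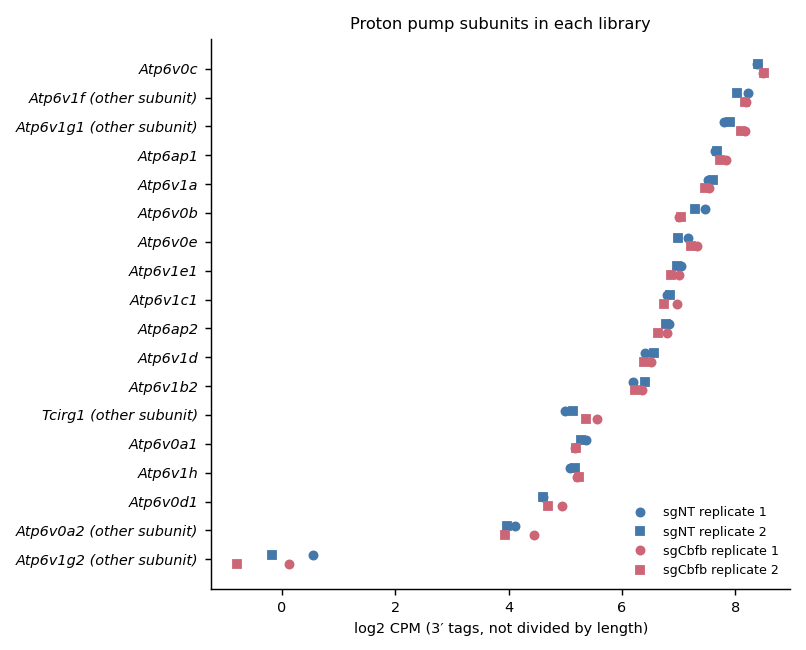
Level (log2 CPM, x axis) of each pump gene in each library, sorted by mean level, with blue for sgNT, red for sgCbfb, circles for replicate 1 and squares for replicate 2. The sgCbfb points of Atp6v0b lie to the left of its sgNT points, those of the further subunit Atp6v1g1 lie to the right, and most other rows overlap or nearly touch.

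Of 12 further pump genes, 5 passed the filter. Atp6v1g1, a stator subunit of V1, had 755 and 795 reads in sgNT and 1120 and 873 in sgCbfb. In sgCbfb the gene was higher in both libraries and rose to 122% of the sgNT level (log2 fold change 0.28, SE 0.070; limma adjusted p = 0.0247). With 1 library left out the fold change was 0.23 to 0.33, and the adjusted p was 0.236 without sgNT replicate 1 and 0.0684 without sgNT replicate 2. It was called in 7 of the 14 alternative fits, and not with no low-value filter (adjusted p = 0.0559) or quantile normalization (adjusted p = 0.143). Tcirg1, the a3 subunit known from osteoclasts, had 106 and 115 reads against 181 and 130, a difference of 0.40 (95% interval 0.11 to 0.69; adjusted p = 0.149). Atp6v1f and Atp6v0a2 differed by 0.063 and 0.15 and Atp6v1g2 had at most 3 reads. The kidney and osteoclast subunits Atp6v0d2, Atp6v1b1, Atp6v1c2 and Atp6v1g3 had no reads in any library. Over all 25 pump genes, members included, the sum was 2212 and 2189 CPM in sgNT and 2343 and 2222 CPM in sgCbfb. Both sgCbfb sums were higher, but the closest values, 2222 and 2212 CPM, lay near each other. CPM counts Rn45s in the total, and Rn45s took 13.9% and 13.1% of reads in sgNT and 11.3% and 13.0% in sgCbfb. The gap is small beside these differences, so no separation is read from these sums.

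Of 41 further enzymes and enzyme-processing genes, 34 were tested, with 16 positive and 18 negative fold changes and a median of -0.045. Sgsh, the sulphamidase of heparan sulphate breakdown, rose, with 42 and 36 reads in sgNT and 81 and 65 in sgCbfb (174% of the sgNT level; log2 fold change 0.80, SE 0.21; limma adjusted p = 0.0389). Its groups did not overlap. With 1 library left out the fold change was 0.71 to 0.89, and the adjusted p was 0.0834 without sgNT replicate 1 and 0.212 without sgNT replicate 2. This gene, too, was called in 7 of the 14 fits, and not with no low-value filter (adjusted p = 0.0746) or quantile normalization (adjusted p = 0.167). Of 29 further membrane and luminal proteins, 24 were tested, with a median of 0.048. Laptm4b, a late endosomal membrane protein, fell, with 677 and 685 reads in sgNT and 659 and 498 in sgCbfb, to 80.3% of the sgNT level (-0.32, SE 0.077; adjusted p = 0.0193). Its groups did not overlap. With 1 library left out the fold change was -0.37 to -0.26, and the adjusted p was 0.1004 without sgNT replicate 1 and 0.183 without sgNT replicate 2. Laptm4b was called in 8 of the 14 fits, and not with quantile normalization (limma adjusted p = 0.105) or with no mean-variance trend (adjusted p = 0.415). The related Laptm4a differed by 0.11, and Npc1 and Npc2, which export cholesterol, by 0.066 and 0.033.

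Over all 119 further lysosomal genes, including the sorting, inhibitor and nutrient-sensing lists, 95 were tested, 2 rose and 1 fell. Their median log2 fold change was 0.027 and 51 were positive. At an unadjusted p under 0.05, 7 (7.37%) were higher and 7 (7.37%) lower. The shares among all genes were 1.57% and 1.25% at the adjusted threshold and 9.67% and 5.23% at the unadjusted one. These counts by p-value are thus near the background. The groups did not overlap for 15 that were higher (15.8%) and 19 that were lower (20%), against 27.4% and 16.8% of all genes. By that measure the higher share was below that of all genes.

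**Figure D4:**
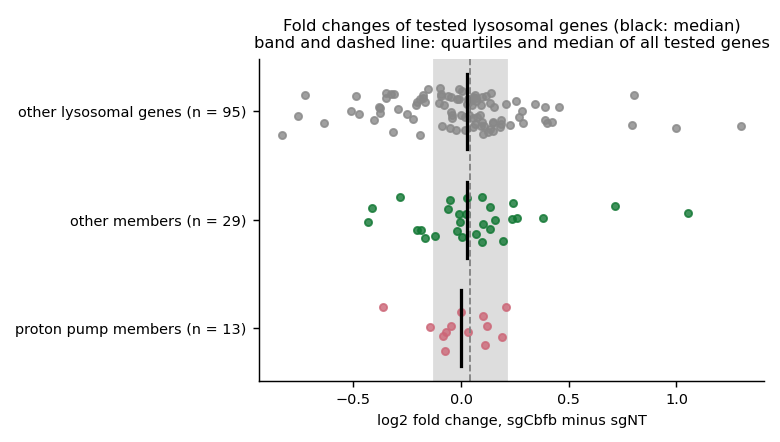
Log2 fold change (x axis) of the 13 proton pump members, the 29 other tested members and the 95 further lysosomal genes tested, each point a gene, with black bars for medians and a grey band for the quartiles of all 12207 genes. The pump members lie in a narrow range of -0.36 to 0.21 and all 3 medians lie between 0 and the median of all genes.

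The promoter words were searched in the 250 bases before the start of the 37 members found in the RefSeq promoter table (GRCm38.p6), on both strands. Ctsb, Ctsh, Asah1, Atp6v1b2, Atp6v1c1 and Atp6v1h had no entry there. The E-box word CACGTG was present for 11 of the 37 members (29.7%) and for 6.86% of all 27025 genes of the table. The longer word GTCACGTG (reverse CACGTGAC), which contains CACGTG and is part of the CLEAR element, was present for 8 members (21.6%) and 2.11% of all genes. TGTGGT or its reverse ACCACA was found for 9 members (24.3%) and 15.9% of all genes. CACGTG and its longer form are known from promoters of lysosomal genes, so their higher shares among members are no result of these data. The shares over all genes were not limited to genes tested here or matched for base content. The windows below hold the longer word of each of the 8 members, 30 bases each, with CACGTG in capitals, at Ctsa (chr2:164833743-164833772, plus strand), Atp6v0b (chr4:117887348-117887377, minus), Ctsd (chr7:142388048-142388077 and chr7:142387908-142387937, minus), Mcoln1 (chr8:3500436-3500465 and chr8:3500462-3500491, plus), Lamp1 (chr8:13159121-13159150, plus), Glb1 (chr9:114401018-114401047, plus), Lgmn (chr12:102439124-102439153, minus) and Gla (chrX:134601182-134601211, minus).

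Ctsa: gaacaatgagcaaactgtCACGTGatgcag
Atp6v0b: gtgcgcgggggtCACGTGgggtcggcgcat
Ctsd, farther from the start: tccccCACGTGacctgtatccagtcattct
Ctsd, nearer the start: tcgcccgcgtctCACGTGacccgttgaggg
Mcoln1, farther from the start: ggtcgcgcttgtCACGTGttcagttcaggc
Mcoln1, nearer the start: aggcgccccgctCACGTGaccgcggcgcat
Lamp1: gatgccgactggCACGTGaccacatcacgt
Glb1: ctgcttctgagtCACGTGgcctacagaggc
Lgmn: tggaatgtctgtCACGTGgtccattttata
Gla: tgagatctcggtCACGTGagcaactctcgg

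The members with and without the E-box word had different medians. Of the 11 with CACGTG, 10 were tested, and their median log2 fold change was -0.13, with 3 positive and a range of -0.41 for Mcoln1 to 0.23 for Glb1. The 26 tested members of the table without it had a median of 0.10, with 16 positive. Only Atp6v0b among the 10 passed the test of its own, and the motifs were chosen after the fold changes were seen, so this is a description with no test. For GTCACGTG the medians were -0.20 with and 0.083 without the word. For TGTGGT they were -0.0046 and 0.068.

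**Figure D5:**
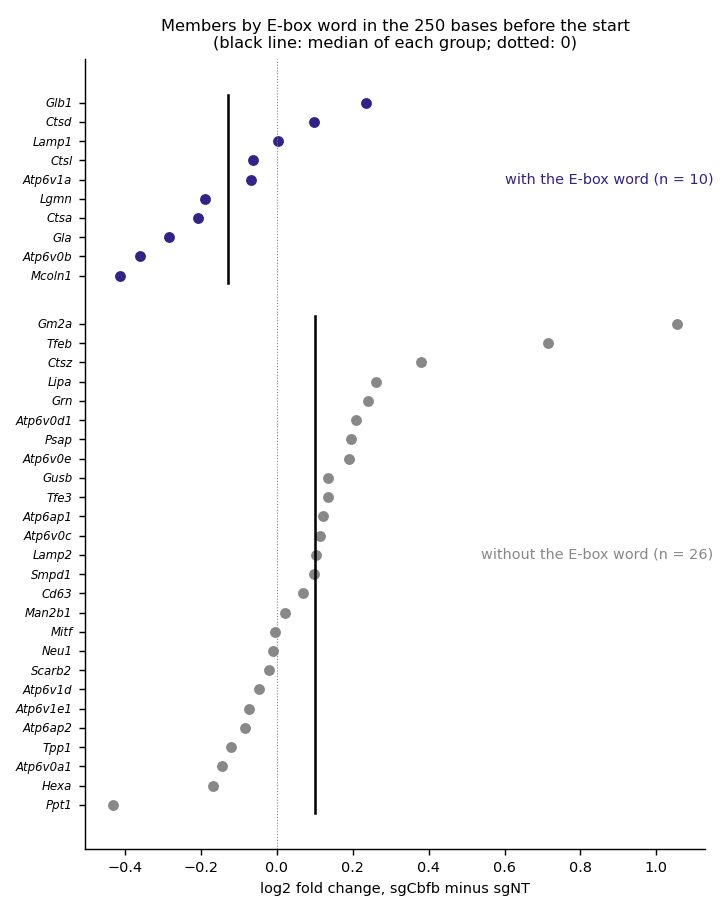
Log2 fold change (x axis) of the 36 tested members in the promoter table, 10 with the E-box word CACGTG in the 250 bases before the start and 26 without, with a black line at each median. The medians are -0.13 with the word and 0.10 without, and the ranges overlap.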

How the data were processed

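MC38 3′ mRNA-seq libraries (QuantSeq) were compared, 2 sgNT and 2 sgCbfb, grouped by their labels. According to the study's methods and processing notes, the authors used cutadapt 1.9 for trimming, HISAT2 2.1.0 for alignment to GRCm38/mm10 and featureCounts for gene counts. The annotation release, the use of strand and the handling of multi-mapped reads are not given in the sources used here, and could alter the values of overlapping genes and paralogs. The authors deposited log2 CPM values scaled to each library's total, which imply a prior count of 2, so that fold changes of low genes are understated. Whole reads were recovered from these values (100% came out whole, to within 0.1).

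The 12207 genes that reached a log2 CPM of 0 in 2 or more libraries were tested on the deposited values with limma 3.58.1 in R 4.3.3, with a mean-variance trend, two-sided, with Benjamini-Hochberg adjustment over all genes tested and a threshold of 0.05. The study names voom with limma, which needs counts and was run on the recovered reads as an alternative. An exact permutation test of 2 against 2 libraries cannot go below p = 0.333. Intervals are at 95%. The scripts were tested on simulated data. The replicates differed by more than counting noise in both groups (chi-square per degree of freedom 1.58 in sgNT and 2.15 in sgCbfb over 9520 genes).

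Values are given in every library for members with an adjusted or unadjusted p under 0.05, the TFEB family and the member of each role with the most reads, and for further lysosomal genes past the threshold. Other genes named were chosen after their values were seen. The members and lists were chosen with earlier results of these data known. Positions come from GENCODE M21 (GRCm38) and sequences from RefSeq (GRCm38.p6). The 14 alternative fits covered the filter, scaling, variance model, replicate block, voom, prior count and each library left out.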

Additional observations from a re-analysis of the deposited data

How the results depend on the processing

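With 2 libraries a group, calls moved with the settings more than fold changes did. Over the 14 alternative fits, the log2 fold change of Atp6v0b ran from -0.45 to -0.27 and it was called in 9. Grn (0.17 to 0.31) and Gm2a (0.76 to 1.35) were called in 5 each, Ctsz and Psap in 2 each. Members called higher, 0 in the main test, numbered 4 when genes needed 5 CPM (Ctsz, Gm2a, Grn and Psap), 2 under vooma weights, 3 with voom on library totals (Gm2a, Grn and Psap) and 2 with voom on median scaling. Members called lower were 0, not 1, with quantile normalization, with no mean-variance trend and at a threshold of 0.01, and 0 to 1 with each library left out. Of the further lysosomal genes, 3 by the main test, 4 were called (Rragc added) at 5 CPM, with median centring, vooma weights, the replicate block and both voom fits. Of them 1 was called with no filter, 0 with quantile normalization, with no trend or at 0.01, and 0 to 1 with each library left out (Sort1, without sgNT replicate 2). The cause was not tested. With no trend the Cbfb log2 fold change of -1.27 had a limma adjusted p of 0.115, and it ran from -1.41 to -1.125 with each library left out. The pump median ran from -0.080 to 0.0635 likewise. Mitf changed sign to 0.0015 with voom on library totals and ran from -0.245 to 0.236 with each library left out.

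Among all genes, 192 rose and 153 fell, against 300 and 209 of 9549 tested with a minimum of 5 CPM, 218 and 170 under vooma weights, 258 and 196 with voom on library totals, 191 and 240 with voom on median scaling, 39 and 44 after quantile normalization, none with no trend (1461 at an unadjusted p under 0.05) and none without either sgCbfb replicate (1104 and 1169). With the replicate number as a block, 320 rose and 215 fell, and 3 members were called higher (Ctsz, Gm2a and Grn). Deviations of same-numbered libraries were uncorrelated over all tested genes (-0.0042). A single value over all genes, many with few reads, cannot exclude a pairing that acts on some of them. Genes with few reads, such as Tfeb and Gm2a, carry large counting error at this depth.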

Other observations

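Genes that deliver enzymes to the lysosome went in both directions, and none passed the test. Of 12 sorting genes tested, 7 had a positive and 5 a negative log2 fold change, with a median of 0.10. The mannose 6-phosphate receptors, which carry newly made enzymes from the Golgi, were both lower, M6pr by -0.22 (284 and 314 reads in sgNT, 323 and 223 in sgCbfb; limma adjusted p = 0.334) and Igf2r by -0.29 (151 and 168 against 130 and 142; adjusted p = 0.344). For Igf2r the groups overlapped. Vps35, a retromer subunit that returns such receptors, differed by -0.20 (adjusted p = 0.193) and Gga2, an adaptor of the same route, by 0.29 (adjusted p = 0.276), both with groups that did not overlap. Sort1, a further sorting receptor, had the largest fold change of the list on few reads, 0 and 7 in sgNT and 11 and 7 in sgCbfb (1.30, 95% interval 0.14 to 2.46; adjusted p = 0.263). It passed only without sgNT replicate 2, the fit that keeps the library with no Sort1 read as the lone sgNT library.

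Of 6 cystatins, which inhibit cathepsins, 3 were tested, and Cst3 and Cstb differed little. Cst3 had 1120 and 1066 reads in sgNT and 1275 and 1028 in sgCbfb, a difference of -0.0016, and Cstb differed by 0.027. Cst6, with 1 to 4 reads a library, differed by -0.25 (95% interval -1.34 to 0.84), and Stfa1, Stfa2 and Stfa3 had no reads. Of 17 tested genes that sense nutrients on the lysosome or hold TFEB in the cytoplasm, 7 were positive and 10 negative. Rragc, a Rag GTPase that recruits TFEB to the lysosome, had 261 and 228 reads in sgNT and 222 and 167 in sgCbfb, a log2 fold change of -0.41 (95% interval -0.64 to -0.17; limma adjusted p = 0.0509), just short of the threshold. It passed with a minimum of 5 CPM, median centring, vooma weights, the replicate block and both voom fits, and in no other alternative. Flcn, which acts on the Rag GTPases, differed by -0.38 (adjusted p = 0.308). The 5 Lamtor genes of the Ragulator scaffold differed by -0.47 to 0.11. These genes were chosen after their values were seen. The 6 fibroblast markers summed to 72.1 and 66.6 CPM in sgNT and 80.3 and 83.7 CPM in sgCbfb. Of the 4 tested, 3 (75%, against 27.4% of all genes) were higher in both sgCbfb libraries and none passed the test. Pdgfra had 121 and 91 reads in sgNT against 169 and 152 in sgCbfb (log2 fold change 0.53; adjusted p = 0.0515), Pdgfrb (4 and 6 against 16 and 7 reads) and Col1a1 (8 and 9 against 13 and 12) differed by 0.82 and 0.41, and Dcn (110 and 115 against 116 and 95) by -0.17. Their part in the lysosomal values was not tested.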
